A study of Mus musculus with 4 samples.

Results

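The mitochondrial respiratory chain is built from nuclear genes and from 13 genes of the mitochondrial genome. Complexes I and II take electrons from NADH and succinate, complex III passes them to cytochrome c, complex IV (cytochrome c oxidase) gives them to oxygen, and ATP synthase uses the proton gradient that results. Several complex IV subunits have a ubiquitous form and a form restricted to certain tissues, such as lung, heart and skeletal muscle or testis.

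The nuclear genes described here were chosen by symbol, as all entries beginning with Nduf followed by a, b, c, s or v, Sdh followed by a to d, Uqcr, Cox4 to Cox8 or Atp5, apart from pseudogene entries marked -ps. The count table held 55472 entries, of which 102 matched, and 98 with at least 100 UMIs (unique molecular identifiers, each standing for 1 counted transcript molecule) in total were kept as members. The 4 that fell below this minimum were Cox7b2 (14 UMIs), Cox6a2 (48), Cox8c (6) and a second Atp5o entry (2), while the smallest member had 722 UMIs. By symbol, 39 of the 98 members were assigned to complex I, 4 to complex II, 8 to complex III, 18 to complex IV and 17 to ATP synthase. These counts include entries without -ps that the gene annotation types as processed pseudogenes. They are Ndufa11b, Ndufb4c and Ndufs6b in complex I and Cox6c2 in complex IV. The other 12 are assembly factors, 8 of complex I and 4 of complex II, so the name rule is wider than subunits alone. Ndufa4 and Ndufa4l2 were counted with complex IV, to which the NDUFA4 protein is now assigned in spite of its name.

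The tumours were mammary carcinomas of female MMTV-PyMT mice aged 13 to 14 weeks on an FVB background, in which the MMTV promoter drives the polyoma middle T oncogene in the mammary epithelium. All mice also carried K14Cre and Rosa-tdTomato, a Cre driver under the keratin 14 promoter and a Cre-dependent fluorescent reporter. The 4 libraries came from 3 mice: tumour 1 from several glands of mouse 1, tumour 2 from an inguinal gland of mouse 2, tumour 3 from a thoracic gland of mouse 3 and tumour 4 from an inguinal gland of the same mouse. There was no tumour-free group, so the comparisons run between cell gates within the same animals and between tumours.

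Cells were gated by UMIs of a few genes, none of them a member. Luminal cells had at least 3 UMIs of Krt8 and Krt18, mural cells (pericytes and vascular smooth muscle) at least 3 of Rgs5, fibroblasts at least 10 of Col1a1 and Col3a1, and macrophages at least 5 of C1qa and C1qb. After cells in more than 1 gate (745) were left out, the gates held 21197, 164, 1355 and 2642 cells with median depths of 3324, 1843, 2574 and 1974.5 UMIs per cell. The mural gate had 31, 23, 60 and 50 cells in tumours 1 to 4, and 42.7% of the cells that met its threshold had been left out as overlap. Library totals ran from 20281799 to 39370565 UMIs over 36162 barcodes, of which 36138 passed the gene minimum, and 623 barcode sequences occurred in more than 1 library. The gates also carried markers that had not defined them: summed over 10 mural markers other than Rgs5 the mural gate had 4674 to 8841 CPM (counts per 1000000 UMIs of the gate) in the 3 mice, against 31.0 to 49.4 in the luminal gate. The 6 luminal markers other than Krt8 and Krt18 still summed to 2773 to 6790 CPM in the mural gate, against 15615 to 35122 in the luminal gate, and 3.08% of luminal cells had been left out as overlap. Each was detected in the mural gate, Wfdc18 being the most abundant at 3936 ± 2077 CPM (SD, n = 3 mice). How far such luminal RNA moved the mural values was not tested in general, but the results with those cells left out are given where they differ.

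Cox4i2 and Ndufa4l2 were the 2 members that stood highest in the mural gate against the luminal gate, by about the same amount. The protein of Cox4i2 replaces COX4I1 as cytochrome c oxidase subunit 4 and is known from lung, where it takes part in oxygen sensing by the pulmonary vasculature. The gene lies on chromosome 2 at 152754173 to 152765037 on the plus strand (GRCm38). It reached 1121, 1132, 1235 and 1078 CPM in the mural gates of tumours 1 to 4, and 1.16, 0.344, 1.79 and 1.26 CPM in the luminal gates of the same tumours. The mural and luminal values did not overlap, and the 4 mural values lay within a narrow band. Over the 3 mice the log2 fold change of the mural over the luminal gate was 9.83 ± 0.33 (SE), with an adjusted p of 1.71e-13. Against the mean of the other 3 gates it was 7.93 ± 0.25, with an adjusted p of 1.19e-13. The fibroblast gate had 10.4, 0, 25.0 and 0.958 CPM in the 4 tumours, resting on 4, 0, 45 and 1 UMIs, and the macrophage gate had 3, 3, 16 and 6 UMIs, or 3.93 ± 1.57 CPM over the mice (SD, n = 3). Both were higher than the luminal gate, by 3.36 (adjusted p 4.69e-06) and 2.33 (adjusted p 0.000883) on the log2 scale, at levels of a few CPM. The fibroblast difference rested on tumour 3, since the values of tumours 2 and 4 lay below their luminal values. It was 1.51 without tumour 3 (adjusted p 0.177) and 2.73 without mouse 3 (adjusted p 0.0562), and neither passed the test.

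In single mural cells thinned to 1500 UMIs each, 63.1% of 130 cells held a Cox4i2 UMI (Clopper-Pearson 95% interval 54.2 to 71.4%). That interval pools the cells of all tumours and covers counting error only, not the spread between tumours or mice. By tumour the mural share was 63.6, 69.6, 70.6 and 51.1% in tumours 1 to 4, from 11, 23, 51 and 45 cells. Over all tumours the share was 0.157% in the luminal gate, 1.29% in the fibroblast gate and 0.875% in the macrophage gate. Thinning left out 34 mural, 820 luminal, 116 fibroblast and 584 macrophage cells that were shallower, and the unthinned mural share was 69.5%. The ubiquitous partner Cox4i1 was at 2364 ± 121 CPM in the mural gate and 2332 ± 135 in the luminal gate (SD, n = 3 mice), before any scaling of the sums. In the scaled fit it was lower in the mural gate, with a log2 fold change of -0.40 and an adjusted p of 0.00953, a call that held under 8 of 14 alternative settings and was lost without mouse 1 (adjusted p 0.358) or mouse 2 (0.0572). Cox4i2 made up 32.5, 31.2, 34.4 and 33.3% of the UMIs of the pair in the mural gates of the 4 tumours, 32.6 ± 1.39% over the mice. In the luminal gate it made up 0.0422 ± 0.0236% of the pair. These shares set UMI counts of 2 genes against each other, without correction for transcript length, and they carry no test. With cells of several gates kept the mural share was 22.6%, and with keratin-positive cells left out, which left 11 mural cells in mouse 2, it was 37.4%.

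Ndufa4l2 and Ndufa4 moved in opposite directions. NDUFA4 is an accessory protein of complex IV, and its paralogue NDUFA4L2 is known as a product of a hypoxia-inducible factor 1 target gene. Ndufa4l2 lies on chromosome 10 at 127514967 to 127517154 on the plus strand, where its exons overlap Shmt2 on the opposite strand. Its level was 1121, 1581, 1532 and 1385 CPM in the mural gates of tumours 1 to 4 and between 0.895 and 2.08 CPM in the luminal gates. Mural and luminal values were again far apart, with a log2 fold change of 9.82 ± 0.58 and an adjusted p of 2.40e-05. Ndufa4 was at 719, 273, 289 and 514 CPM in the mural gates and at 1303, 1375, 1376 and 1443 CPM in the luminal gates. Every mural value lay below every luminal value, and the log2 fold change was -2.03 ± 0.17 with an adjusted p of 1.71e-12. Under 14 alternative settings the size of this change varied from -2.58 to -1.09, and the call held in each. Ndufa4 was also lower in the fibroblast gate, with a log2 fold change of -0.93 ± 0.14, and in the macrophage gate, at -0.63 ± 0.13. The share of Ndufa4l2 in the UMIs of the pair was 75.1 ± 12.7% in the mural gate, with 60.9, 85.3, 84.1 and 72.9% in the 4 tumours, and 0.0849 ± 0.0263% in the luminal gate.

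The fibroblast gate held the next highest level of Ndufa4l2. It had 46.8, 150.5, 52.9 and 51.7 CPM in tumours 1 to 4, all above the luminal and macrophage values, with a log2 fold change against the luminal gate of 5.92 ± 0.57 and an adjusted p of 1.02e-04. Tumour 2 stood above the other 3 here, with 79 UMIs. The fibroblast level came from a small share of the cells. In cells thinned as for Cox4i2, 5.97% of fibroblasts held an Ndufa4l2 UMI, against 82.3% of mural cells. By tumour this fibroblast share was 5.22, 5.30, 6.48 and 5.71% in tumours 1 to 4, so tumour 2 did not stand above the others in it. The 10 mural markers other than the gate gene Rgs5 were all detected in the fibroblast gate and summed to 1177 to 2134 CPM, mostly from Tagln (695 ± 289 CPM), Acta2 (548 ± 284) and Pdgfrb (266 ± 86.8). Each of the other 7 was at a mean of 4.11 to 18.4 CPM, the lowest being Higd1b, which was at 2203 ± 509 CPM in the mural gate. The part of mural RNA in the fibroblast value was not tested.

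Cells with few Rgs5 UMIs had less Cox4i2 and Ndufa4l2 and more Ndufa4. With 1 or 2 Rgs5 UMIs, 107 cells outside the other 3 gates summed to 155 CPM of Cox4i2, 273 of Ndufa4l2 and 1153 of Ndufa4. The 30 cells with 3 or 4 Rgs5 UMIs had 706, 1058 and 843 CPM, and the 134 cells with 5 or more had 1237, 1504 and 340 CPM. The luminal secretory gene Wfdc18 went from 11887 to 5880 and 2654 CPM over the same 3 classes, and its part in the other trends was not tested.

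**Figure D1:**
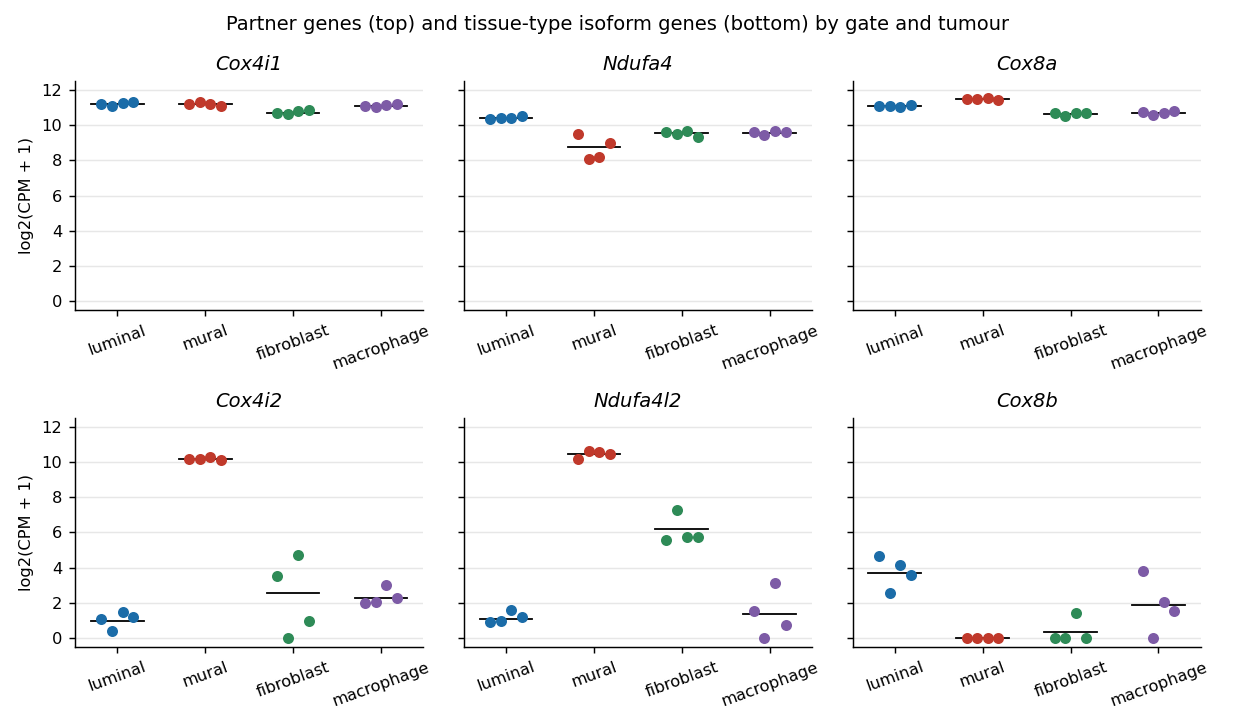
Levels of 3 ubiquitous complex IV genes (top row) and their tissue-type forms (bottom row) as log2(CPM + 1), by gate. Each point is 1 of the 4 tumours in order from left to right, and the line is the mean of the log values of the 3 mice. Cox4i2 and Ndufa4l2 stand high in the mural gate, with Ndufa4 lower there than elsewhere, and Cox8b is at 0 UMIs in the mural gate.

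Cox6b2, the testis form of subunit 6B, was higher in all 3 non-luminal gates. It was at 4.48, 12.3, 2.64 and 2.33 CPM in the luminal gates of tumours 1 to 4, at 63.5, 58.6, 78.2 and 59.3 in the mural gates, 49.4, 43.8, 37.8 and 30.6 in the fibroblast gates and 42.2, 41.3, 24.5 and 21.4 in the macrophage gates. No luminal value reached the lowest value of another gate. The log2 fold changes against the luminal gate were 3.44 ± 0.68 (mural), 2.93 ± 0.38 (fibroblast) and 2.86 ± 0.35 (macrophage), with adjusted p of 0.00221, 1.66e-05 and 1.03e-05. The mural values rest on 22 UMIs in all, and without mouse 3 the mural call was lost, with an adjusted p of 0.0563. The ubiquitous Cox6b1 stayed far above it in every gate, at 1042 to 1640 CPM.

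Among the heart and skeletal muscle forms, the members Cox7a1 and Cox8b went the other way. Cox6a2, a form below the UMI minimum, did not do so in the macrophage gate. It made up 0.477% of its pair with Cox6a1 there and 0.00773% in the luminal gate (means of 3 mice), from 24 and 9 UMIs. Cox7a1 was at 61.0, 48.0, 40.6 and 48.8 CPM in the luminal gates of tumours 1 to 4 and at 2.60, 15.2, 1.11 and 6.70 in the fibroblast gates, a log2 fold change of -3.28 ± 0.35 with an adjusted p of 3.26e-10. It was at 22.6, 11.3, 10.1 and 16.2 CPM in the macrophage gates, lower by -1.51 ± 0.25 with an adjusted p of 2.40e-06. The mural gate had 14 Cox7a1 UMIs and its difference from the luminal gate did not pass the test. Its partner Cox7a2 was at 1310 ± 39.1 CPM in the luminal gate.

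Cox8b lies on chromosome 7 at 140898945 to 140900446 on the minus strand, and its product is the heart and muscle form of subunit 8. The luminal gates had 23.9, 4.99, 16.5 and 10.9 CPM in tumours 1 to 4, from 267, 174, 295 and 233 UMIs. Tumour 1 was highest and tumour 2 lowest, so the level varied several-fold among luminal gates alone. The mural gate had 0 Cox8b UMIs among 327540, which allows up to 9.16 CPM at 3 counts over the gate. The luminal mean of 14.1 CPM was at least 1.54-fold higher than this limit, but the luminal value of tumour 2 lay below it, and without mouse 1 or mouse 3 the luminal mean (9.22 and 14.4 CPM) lay below the limit that the remaining mural sums allow (10.7 and 30.5 CPM). No Cox8b UMI in 164 mural cells allows a share of up to 1.83% of cells with one. The fibroblast gate had 3 UMIs, all in tumour 3, and the macrophage gate had 13, 0, 7 and 3. Both differences from the luminal gate passed the test, at -4.09 (adjusted p 5.92e-07) and -1.57 (adjusted p 0.000733) on the log2 scale. The macrophage values of tumours 1 to 4 were 12.8, 0, 3.06 and 1.94 CPM, in the same order as the luminal values of those tumours, and the part of luminal RNA in them was not tested. The 6 skeletal muscle markers summed to 14.5 to 24.7 CPM in the luminal gate, nearly all of it Mb (myoglobin, 17.9 ± 5.08 CPM), with Ckm at 0.781 and Acta1 at 0.634 CPM.

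The promoter of Cox8b is shown beside that of Cox8a, its ubiquitous partner, because they encode forms of the same subunit, of which Cox8a was at 2178 ± 31.0 CPM in the luminal gate. Both are RefSeq windows of 300 bases (GRCm38.p6, minus strand), from 250 bases before the annotated start to 50 after it, chr7:140900397-140900696 for Cox8b and chr19:7217567-7217866 for Cox8a. Capitals mark matches on either strand to the ETS motif CCGGAAG, the TATA box TATAAA, the E-box CAGCTG and the core of the hypoxia response element ACGTG.
Cox8b: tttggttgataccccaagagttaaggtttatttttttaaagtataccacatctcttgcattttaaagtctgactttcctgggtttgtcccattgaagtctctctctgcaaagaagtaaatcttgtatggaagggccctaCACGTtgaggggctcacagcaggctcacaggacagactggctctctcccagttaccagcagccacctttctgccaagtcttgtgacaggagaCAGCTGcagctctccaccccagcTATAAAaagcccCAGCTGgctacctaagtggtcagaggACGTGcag
Cox8a: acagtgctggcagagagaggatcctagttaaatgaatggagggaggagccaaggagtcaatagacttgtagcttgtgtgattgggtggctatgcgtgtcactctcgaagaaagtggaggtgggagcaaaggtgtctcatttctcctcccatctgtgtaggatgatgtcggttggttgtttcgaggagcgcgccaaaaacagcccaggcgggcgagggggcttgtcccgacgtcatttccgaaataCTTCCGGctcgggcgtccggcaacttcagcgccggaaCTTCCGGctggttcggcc
Cox8b held 2 E-boxes, a TATA box and 2 hypoxia response cores and no ETS motif. Cox8a held 2 ETS motifs (reading CTTCCGG on this strand) and none of the others. Promoter windows were found for 79 members, 84 windows in all, among 32851 in the whole table. The 19 members without a window include Cox4i2, Ndufa4l2 and Cox4i1, so the shares that follow do not cover them. The ETS motif was in 26.2% of member windows and in 8.86% of all windows. The consensus motif of nuclear respiratory factor 1 was in 8.33% against 0.971%, and the YY1 motif AAGATGGC in 13.1% against 2.75%. TATAAA was in 10.7% against 13.6%, CAGCTG in 7.14% against 16.3% and ACGTG in 23.8% against 19.6%. Member windows had a median GC content of 58.7%, against 52.7% for all. The letters of some motifs can share bases, such as the AAG that ends CCGGAAG and begins AAGATGGC, but in the 84 member windows 0 had overlapping matches of different motifs. A window with a match on either or both strands was counted once. These matches are letters in a window and not sites of binding.

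Taken as a share of all RNA molecules counted, the chain was smaller in fibroblasts and macrophages than in luminal cells. All 98 members made up 4.99 ± 0.0676% of luminal UMIs (5.06, 4.98 and 4.92% in mice 1 to 3, SD, n = 3) and 5.15 ± 0.201% of mural UMIs (5.38, 5.06 and 5.01%). They made up 3.73 ± 0.169% of fibroblast UMIs (3.88, 3.55 and 3.76%) and 3.73 ± 0.316% of macrophage UMIs (4.01, 3.39 and 3.80%). No fibroblast or macrophage value reached a luminal or mural value, whereas the luminal and mural ranges overlapped. Without Cox4i2 and Ndufa4l2 the mural share was 4.89 ± 0.225%, and the luminal share stayed at 4.99 ± 0.0677%. Complex IV took 1.81 ± 0.104% of mural, 1.57 ± 0.0576% of luminal, 1.13 ± 0.0412% of fibroblast and 1.22 ± 0.107% of macrophage UMIs. The 3 mural values lay above all luminal ones, but they include Cox4i2 and Ndufa4l2, at means of 1140 and 1390 CPM in the mural gate. The complex IV share without these genes was not taken. In the gene tests of the mural against the luminal gate, 3 of 18 complex IV members were higher (Cox4i2, Ndufa4l2 and Cox6b2) and 7 were lower. Complex I was at 1.54% of luminal, 1.52% of mural, 1.22% of fibroblast and 1.16% of macrophage UMIs, and complex III at 0.620, 0.598, 0.425 and 0.428%. Complex II, the smallest, was at 0.0396% of luminal and 0.0349% of fibroblast UMIs, but at 0.0499% of mural and 0.0492% of macrophage UMIs. The 13 mitochondrially encoded subunits took 0.844 ± 0.116% of luminal, 0.601 ± 0.0720% of mural, 0.449 ± 0.0356% of fibroblast and 0.587 ± 0.0278% of macrophage UMIs, with no overlap of fibroblast and luminal values. These shares carry no test, and each depends on what else a cell expresses. In CPM with no scaling factor, the median log2 ratio of macrophage to luminal gate was -0.37 over the members and -0.34 over all genes tested. For the fibroblast gate the same medians were -0.38 and -0.04, so the lower macrophage share was close to that of the median gene.

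**Figure D2:**
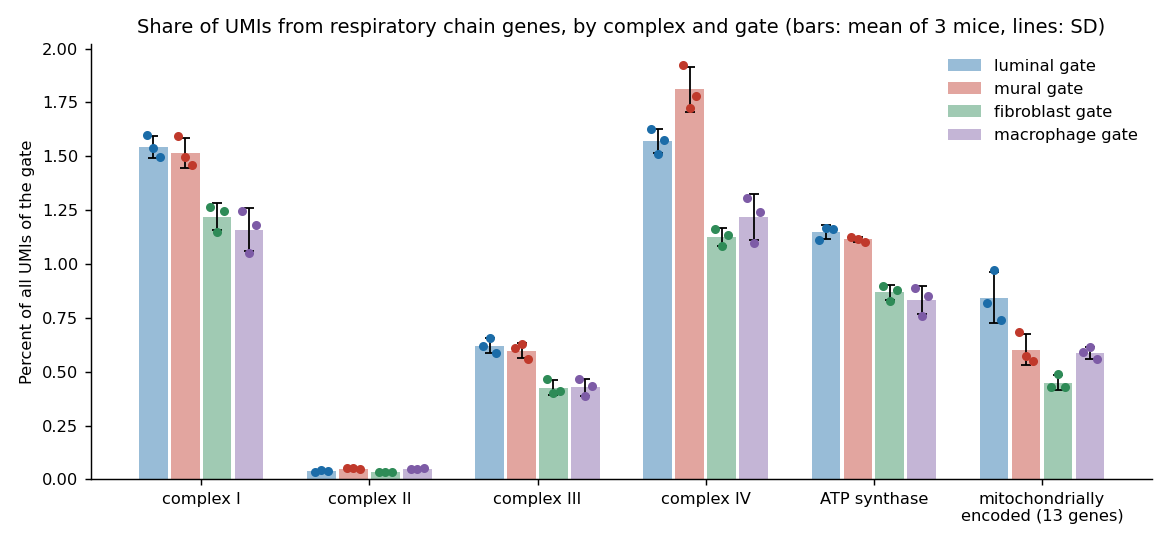
Percent of all UMIs of a gate that came from the members of each complex and from the mitochondrially encoded subunits. Bars are the mean of 3 mice, lines the SD and points the mice. Fibroblast and macrophage bars are lower than luminal bars for complexes I, III and IV and ATP synthase. Complex IV, which here includes Cox4i2 and Ndufa4l2, is highest in the mural gate.

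The fibroblast gate had lower levels of most of the chain than the luminal gate. Counts were summed per mouse and gate and compared gene by gene with the mouse as a block, and a gene was called at an adjusted p under 0.05 over all 9276 genes tested. Of 96 members tested 53 were lower, where 26.7% of all genes were lower, and 4 were higher, where 24.9% of all genes were higher. The median log2 fold change was -0.44 over the members and -0.09 over all genes. ATP synthase had 13 of 17 members lower, complex III 6 of 8, complex IV 12 of 18 and complex I 20 of 39, while none of the 4 complex II subunits was called.

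Complex III subunits were among the lowest. Uqcrfs1, the Rieske iron-sulfur protein, was at 106, 87.7 and 95.4 CPM in the fibroblast gates of mice 1 to 3 and at 235, 284 and 242 in the luminal gates, a log2 fold change of -1.47 ± 0.18 (adjusted p 3.65e-09). Uqcrc2, a core protein, changed by -1.06 ± 0.18 (adjusted p 2.73e-06), and the small accessory subunit Uqcr11 by -1.16 ± 0.13 (adjusted p 1.28e-10). Fibroblast and luminal values of these genes did not overlap. In complex I the lowest was Ndufb9, a membrane arm subunit, with 543, 434 and 478 CPM against 1141, 859 and 920, a change of -1.06 ± 0.13 (adjusted p 1.86e-09). The 3 genes for the same c subunit of ATP synthase fell together, Atp5g1 by -0.85, Atp5g3 by -0.86 and the weakly expressed Atp5g2 by -1.48 ± 0.33. Atp5e, the epsilon subunit, was 1 of the 4 higher members. It was at 1652, 1319 and 1534 CPM in fibroblasts and 1210, 1021 and 1200 in luminal cells, a change of 0.33 ± 0.12 (adjusted p 0.0173), and this call held under 9 of 15 alternative settings and was lost without mouse 1, 2 or 3 (adjusted p 0.239, 0.164 and 0.0664). The other 3 were Ndufa4l2, Cox4i2 and Cox6b2.

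Among lists of related genes in the fibroblast gate, set against the 26.7% of all genes that were lower, the mitochondrially encoded subunits were mostly lower and the others less uniform. Of 13 mitochondrially encoded subunits 9 were tested and 8 were lower, among them mt-Co1 at -1.46 ± 0.15 (adjusted p 2.25e-11). In the tricarboxylic acid cycle 6 of 13 tested genes were lower and none higher, led by Suclg2 at -1.46 ± 0.25 and Idh3g at -1.44 ± 0.19, which encode subunits of succinate-CoA ligase and isocitrate dehydrogenase. Of 12 tested electron carriers and other chain genes 6 were lower, such as Cyc1 (cytochrome c1) at -0.83, and 1, Higd1a, was higher at 0.56, a call lost without mouse 2 (0.13, adjusted p 0.571) or tumour 4 (0.47, adjusted p 0.0591). Among 9 tested regulators of mitochondrial genes Hif1a (1.36 ± 0.22) and Epas1 (1.10 ± 0.30), the alpha subunits of hypoxia-inducible factors, were higher, and Egln3, a prolyl hydroxylase that acts on them, was lower at -3.31 ± 0.31. The Epas1 call was lost without mouse 3 (adjusted p 0.220). The number of lower members was 31 without mouse 1 and the number of higher members 2 without mouse 3. The member median lay below the median of all genes under every scaling tried, by 0.34 to 0.36 on the log2 scale.

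In the macrophage gate a few subunits were higher than in the luminal gate and the members as a group lay close to all genes. Against the luminal gate 27 of 96 were lower, where 27.4% of all genes were, and 6 were higher, where 22.7% of all genes were. Their median log2 fold change was -0.13, against -0.12 for all genes. Cox5a, a subunit of complex IV, was at 764, 761 and 787 CPM in the macrophage gates of mice 1 to 3 and at 457, 345 and 442 in the luminal gates, a change of 1.15 ± 0.13 (adjusted p 1.93e-10). Sdhb, the iron-sulfur subunit of complex II, was at 291, 292 and 337 CPM against 184, 188 and 190, a change of 0.95 ± 0.14 (adjusted p 1.33e-07). The macrophage values of both genes lay above all luminal values. Ndufa1, an accessory subunit of complex I, was higher by 0.61 ± 0.13, and Ndufs8, an iron-sulfur core subunit, by 0.36 ± 0.14, though the latter passed under only 8 of 15 alternatives and not without mouse 1 (adjusted p 0.116), mouse 3 (0.178) or tumour 4 (0.0552). The remaining 2 were Cox6b2 and Cox4i2.

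Among the lower members Ndufb9 changed by -0.96 ± 0.13, Uqcrfs1 by -0.68 ± 0.16, Atp5g1 by -0.67 ± 0.13, Uqcr10 by -0.63 ± 0.13 and Sdhaf3, an assembly factor of complex II, by -0.88 ± 0.26. The Uqcr10 call was lost without mouse 2 (adjusted p 0.0591) and the Sdhaf3 call without mouse 3 (0.0528). Of the 9 mitochondrially encoded subunits tested 5 were lower, by 0.36 to 0.74 on the log2 scale. None of these 5 calls held with each mouse left out in turn. Those of mt-Co1, mt-Nd4 and mt-Cytb were lost without mouse 1 or 2. The mt-Nd2 call was lost without mouse 1, 2 or 3 and the mt-Atp8 call without mouse 3. For mt-Co1 the call held under 7 of 14 alternatives. In the tricarboxylic acid cycle 3 of 13 genes were lower, a smaller share than the 27.4% of all genes, with Suclg2 at -0.94 ± 0.21. Coq10b, which is needed for the function of coenzyme Q, was higher by 1.54 ± 0.18, while 4 of the 12 carriers and other chain genes were lower. Of 9 regulators Tfam, the mitochondrial transcription factor, and Egln3 were lower, at -0.65 ± 0.24 and -2.13 ± 0.24. The Tfam call held under 7 of 15 alternatives and was lost without mouse 2 (adjusted p 0.157), mouse 3 (0.168) or tumour 3 (0.0845). The number of lower members fell to 9, 11 and 17 without mouse 1, 2 or 3 and was 15 with no mouse block, while the number of higher members was 11 with DESeq2.

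**Figure D3:**
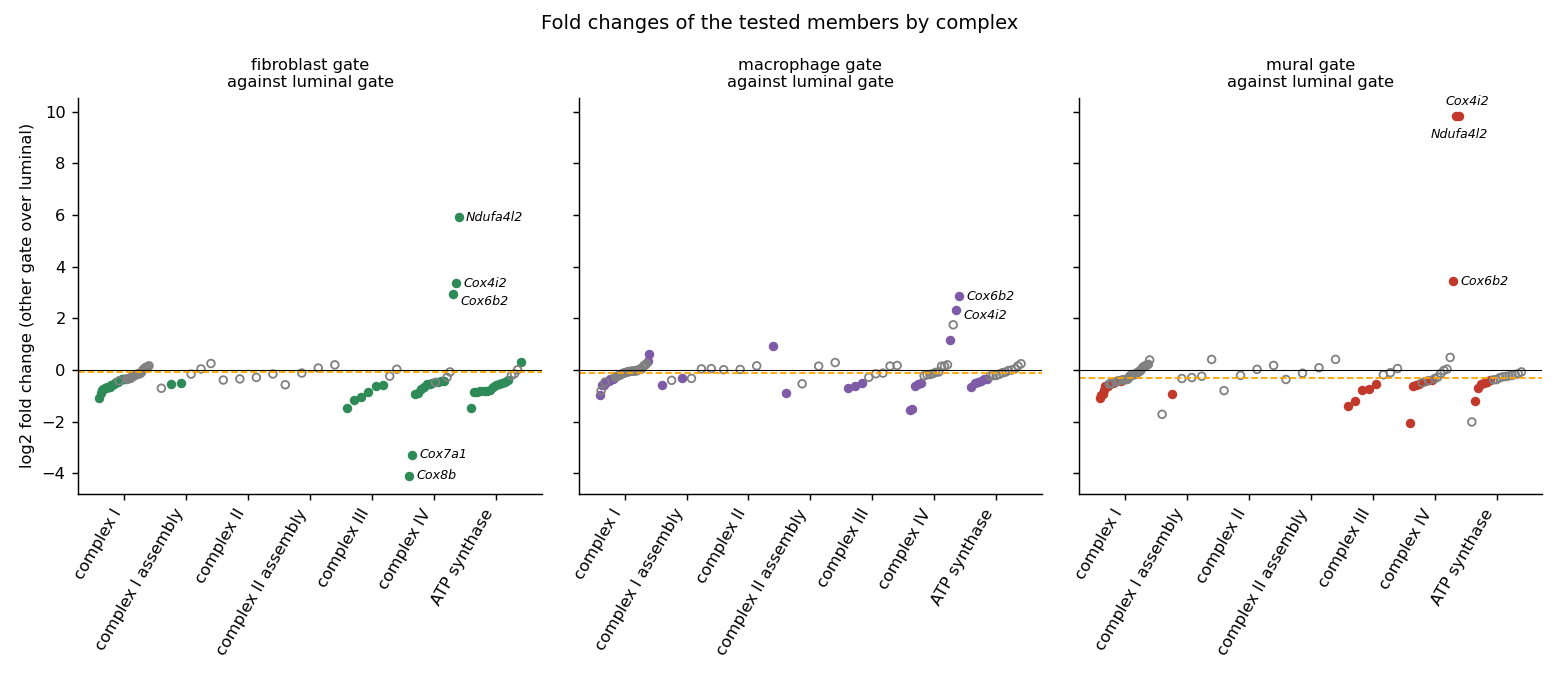
Log2 fold changes of the tested members against the luminal gate, by complex and in rising order within it. Filled points passed the test, open points did not, the dashed line is the median of all genes tested, and genes beyond 2.2 either way are named. Cox8b, at 0 UMIs in the mural gate, is left out of the right panel. Members of complexes I, III and IV and ATP synthase lie mostly below the dashed line in the fibroblast panel.

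The mural gate was also lower than the luminal gate in members of complexes I, III and IV and of ATP synthase, in numbers that depended on the scaling. Of 96 members 31 were lower, Cox8b with its 0 UMIs among them, where 13.8% of all genes were, and 3 were higher (Cox4i2, Ndufa4l2 and Cox6b2), where 9.79% of all genes were. The lower members were 5 of 8 in complex III, 7 of 18 in complex IV, 6 of 17 in ATP synthase, 12 of 39 in complex I and 1 of 6 tested assembly factors of complex I. The scaling factors of the 3 mural sums were 1.10 to 1.43, and the median log2 fold change was -0.36 over the members and -0.30 over all genes. Without a scaling factor both medians were 0.02. Members whose mean CPM was also lower before scaling included Atp5g1, at 1185, 605 and 891 CPM in the mural gates of mice 1 to 3 and 1539, 1711 and 1410 in the luminal gates, a change of -1.20 ± 0.15 (adjusted p 1.21e-07). Uqcrfs1 changed by -1.19 ± 0.24, Uqcrc2 by -1.38 ± 0.32, Ndufb9 by -0.96 ± 0.15 and Ndufv3, a subunit of the NADH-oxidising module, by -1.07 ± 0.17 (adjusted p 2.61e-06). Mural values of Ndufv3 were 423, 312 and 389 CPM, all below the luminal 692, 626 and 540.

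Against the mean of the other 3 gates 9 members were lower, where 5.08% of all genes were, and 2 were higher, Cox4i2 and Ndufa4l2, where 5.77% of all genes were. Ndufa4 was the lowest at -1.51 ± 0.15 (adjusted p 6.87e-10). Ndufv3 (-0.90 ± 0.15), Atp5g1 (-0.69 ± 0.14), Ndufc2 (-0.66 ± 0.15), the complex I assembly factor Ndufaf8 (-0.66 ± 0.19) and Uqcrc2 (-0.98 ± 0.32) were among the others, and the Ndufaf8 and Uqcrc2 calls held under 9 and 6 of 14 alternatives. The Ndufaf8 call was lost without mouse 2 (adjusted p 0.0919) or mouse 3 (0.248), the Uqcrc2 call without mouse 1, 2 or 3 (0.133, 0.208 and 0.0784) or tumour 3 (0.196), and the Ndufc2 call without mouse 1 (0.075). Among genes of the related lists Higd1b, a relative of the complex IV assembly protein Higd1a, was at 1629, 2596, 2228 and 2582 CPM in the mural gates of the 4 tumours and at 0.631 to 2.36 in the luminal gates. It was higher than the mean of the other gates by 9.78 ± 0.37 (adjusted p 2.08e-06), next to Epas1 at 4.18 ± 0.31 (adjusted p 8.95e-15). Epas1 was at 185 ± 33.9 CPM in the mural gate, 7.54 ± 2.13 in the luminal gate, 16.1 ± 1.27 in the fibroblast gate and 3.92 ± 1.13 in the macrophage gate. Of the mitochondrially encoded subunits 5 of 9 were lower, and none of the 13 tricarboxylic acid cycle genes was called. The calls of mt-Cytb, mt-Nd2 and mt-Nd4 held under only 5, 6 and 9 of 13 alternatives. Those of mt-Nd1 and mt-Co1 held under 11 and 12. The number of members lower than in the luminal gate was 18 with size factors, 14 with DESeq2, 47 with no count filter, 20 with no mouse block, and 13 and 16 without mouse 1 or 2, whereas the 3 higher members numbered 2 or 3 under every alternative run.

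The test for any difference among the 4 gates passed for 63 of 96 members, 65.6%, where it passed for 69.9% of all genes. Ndufaf1 and Ndufaf5, assembly factors of complex I with 764 and 792 UMIs in the 12 sums, did not pass the count filter and were not tested.

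Between tumours the luminal gate varied little in most of the members at 50 CPM or more. Cox8b and Cox6b2 lay below that level and are not covered here. Among members with at least 50 CPM in the highest tumour, 6 of 80 differed by 1.5-fold or more between the highest and the lowest tumour. Of the 2533 genes at that level 28.7% did. The median ratio of highest to lowest was 1.21 over these members and 1.34 over these 2533 genes. With 1 library per tumour there is no test. Uqcr10, an accessory subunit of complex III, was the widest, at 1401, 1723, 1100 and 1298 CPM in tumours 1 to 4, and tumour 2 was highest. Ndufv3 was at 692, 626, 445 and 618 CPM, with tumour 3 lowest. Uqcrc1, a core protein of complex III, was at 120, 186, 184 and 159 CPM, Ndufb4, a complex I accessory subunit, at 58.6, 74.9, 89.5 and 80.5, and Atp5b, the catalytic beta subunit, at 407, 571, 621 and 533. Tumour 1 was lowest in these 3 genes and highest in Cox7a1, which had 61.0, 48.0, 40.6 and 48.8 CPM. Without tumour 1 or without tumour 3 the count was 1 member. Tumours 3 and 4, from different glands of the same mouse, differed by 1.5-fold or more in 0 of 78 members. Of the 2293 genes compared in this way 1.22% were higher in the thoracic and 1.31% in the inguinal tumour.

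**Figure D4:**
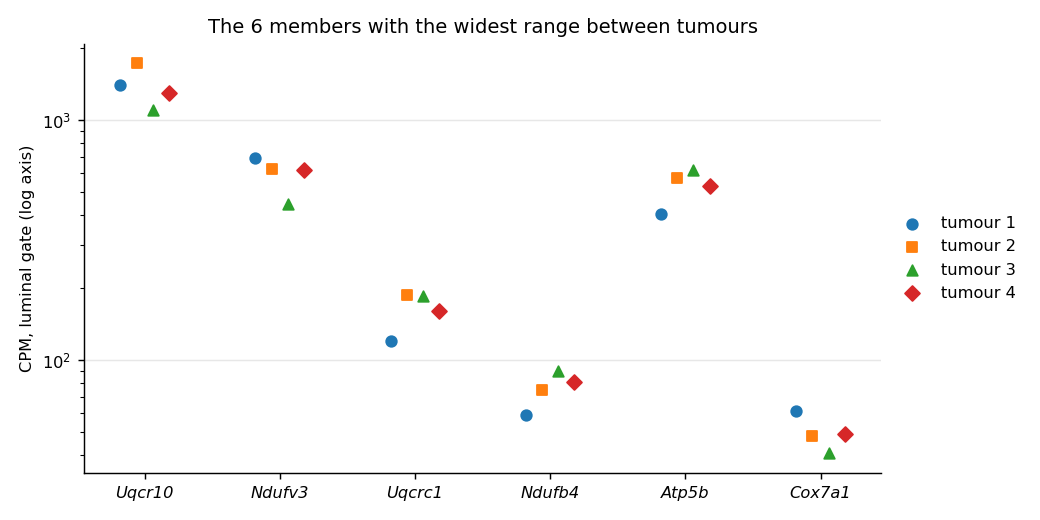
CPM of 6 members in the luminal gate of each tumour, on a log axis. Each point is 1 library. Uqcrc1, Ndufb4 and Atp5b are lowest in tumour 1, and Uqcr10 and Ndufv3 are lowest in tumour 3.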

How the data were processed

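For each of the 4 libraries the authors deposited a matrix of raw UMI counts, with genes in rows and barcodes in columns. Reads were processed with FastQC and Cell Ranger 2.2.0 on mm10 (GRCm38), per the submitters' processing notes, and the library chemistry is not given in the sources used here. The barcodes had already been called as cells by the authors, with at least 836 UMIs each. A barcode needed 300 detected genes and a mitochondrial share below 15%, and 24 failed the first of these. No doublet caller was run, and doublets were dealt with only through cells in more than 1 gate and an alternative without the top 5% of cells by UMIs. Counts were summed per mouse and gate (12 sums, tumours 3 and 4 together), since cells are not replicates.

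The sums were fitted in edgeR 4.0.16 (R 4.3.3, TMM scaling, filterByExpr, robust quasi-likelihood F test) with the mouse as a block, with Benjamini-Hochberg adjustment across the 9276 genes that passed the filter. The block rests on the animals in the labels, and sums of the same mouse deviated together, with correlations of 0.133 to 0.563. DESeq2 1.42.0 was an alternative. SE values are the log2 fold change divided by the root of F. The pipeline was tested on simulated counts without a mouse effect, for recovered changes in the fibroblast comparison and false calls in the macrophage comparison. No requirement was set for the mural comparisons. CPM values carry no scaling factor. Shares of isoforms have exact Clopper-Pearson 95% intervals, which cover counting error only, and the tumours within a gate were compared as values without a test. Thinning drew 1500 UMIs per cell at random with a fixed seed (11).

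The members and the lists of related genes and markers were chosen with earlier results of these data known. The text names all tissue-type isoforms, up to 6 called members each way per comparison with at least 20 CPM and the same direction in 3 of 3 mice, the 6 members with the widest range among luminal gates, and called genes of the related lists. Gene coordinates are from GENCODE M21, in which 55144 of 55472 entries and all 98 members were found, and promoter windows are from RefSeq. Reads of overlapping genes on opposite strands, such as Cox4i1 with Emc8, may not be separable where counting ignores strand.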

Additional observations from a re-analysis of the deposited data

Results flagged for a closer look

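Ndufa4l2 in the fibroblast gate was set apart in tumour 2, whose value lay far from the other 3 for the size of the range. It was at 150.5 CPM there, against 46.8 to 52.9 CPM in the other tumours, and made up 17.5% of the UMIs of the Ndufa4 pair, against 5.61 to 7.57%. Of 25 sets of 4 tumours examined in this way 2 stood out, both of them this gene, and chance gives about 1 in 20. The fibroblast gate of tumour 2 held 151 cells, the fewest of the 4. Of these, 11.9% held an Ndufa4l2 UMI before thinning and 5.30% after it. The other tumours had 4.52 to 10.4% before thinning and 5.22 to 6.48% after it.

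Among the symbols under the minimum of 100 UMIs, a few counts exceeded the 3 that a count of 0 allows. Cox6a2, the heart and muscle form of subunit 6A, had 48 UMIs in all. Of these, 24 were among the 5816922 UMIs of the macrophage gate and 9 among the 85286778 of the luminal gate. The testis forms Cox7b2 and Cox8c had 13 and 5 UMIs in the luminal gate. These genes entered no comparison.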

How the results depend on the processing

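The direction held under every alternative run for all named members with a called difference, and Cox4i2, Ndufa4l2 and Ndufa4 in the mural gate passed under all 14. Counts of called members moved by over 1.5 times as follows, and the cause was not tested beyond what each setting leaves out. For macrophage against luminal, higher members numbered 11 with DESeq2, 10 with tumours as samples and 10 with doubled gate thresholds, and lower members numbered 15 with no replicate block. For mural against luminal, lower members numbered 18 with size factors, 14 with DESeq2, 47 with no count filter and 20 with no replicate block. For mural against the mean of the other gates, higher members numbered 4 with DESeq2, and lower members numbered 5 with size factors, 4 with DESeq2, 22 with no count filter, 14 with tumours as samples, 14 without tumour 3 and 3 with cells of several gates kept. The block moved no other count by over 1.5 times.

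Leaving out each mouse in turn gave 2 to 3 higher and 31 to 48 lower members for fibroblasts, 5 to 7 higher and 9 to 17 lower for macrophages, 2 to 3 higher and 13 to 31 lower for the mural gate against luminal, 2 to 3 higher and 4 to 11 lower against the mean, and 38 to 56 members in the test of any difference. The luminal share of UMIs was 5.05% without the top 5% of cells, and the mural share 4.93% with cells of several gates kept. With such cells kept Cox4i2 made up 22.6% and Ndufa4l2 53.5% of their mural pairs. Cox4i2 made up 27.7% with doubled thresholds, where mouse 1 had 18 mural cells, and 37.4% with keratin-positive cells left out, where mouse 2 had 11. The luminal gate had 1 member with a range of 1.5-fold without tumour 1 and 1 without tumour 3. The mural difference of mt-Nd2 from the mean turned to 0.0064 on the log2 scale with cells of several gates kept. Cox8b lost its macrophage call with no replicate block and with doubled thresholds, and its mural call in 4 of 11 alternatives. Mural comparisons were not run with doubled thresholds, since a minimum of 20 cells per mouse was set. For the keratin alternative, chosen after seeing the data, the minimum was lowered to 10.

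The mural gate is the limit: 164 cells and 327540 UMIs in all, against 85286778 UMIs in the luminal gate.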

Other observations

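Cox8b UMIs in the luminal gate came from few cells, and these cells also held more of a secreted carbonic anhydrase. Of 21197 luminal cells 3.38% had a Cox8b UMI, 5.54, 1.70, 4.64 and 3.45% in tumours 1 to 4. Cells with one had summed levels of Car6 of 1226, 2754, 2581 and 1158 CPM in tumours 1 to 4, against 433, 182, 493 and 140 CPM in luminal cells without one. The other secretory genes looked at did not share 1 direction. Scgb1b27 was at 6452, 494, 137 and 1522 CPM in cells with a Cox8b UMI and at 2159, 334, 196 and 112 in the others, lower with one in tumour 3. Smr2 was at 389, 13.1, 18.2 and 1.19 CPM against 83.0, 2.66, 6.35 and 3.06, lower with one in tumour 4, where it rested on 1 UMI. All 3 were chosen after values were seen, so the differences are a description. Cells with a Cox8b UMI had median depths of 2902.5, 4129.5, 3664 and 3595 UMIs and the others 2648, 3513, 3709 and 3241. Mb, a muscle gene, was at 34.1, 7.29, 20.6 and 23.9 CPM in cells with a Cox8b UMI and at 22.4, 13.1, 13.8 and 20.6 CPM in the others, with no common direction. Outside the 4 gates 594 of the 1608 Cox8b UMIs were found.

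Most UMIs of Cox4i2 and Ndufa4l2 came from cells that met the Rgs5 threshold. Counting cells that also met another gate, 67.5% of the 833 Cox4i2 UMIs and 52.6% of the 1383 Ndufa4l2 UMIs of all libraries were in such cells, against 0.700% of Cox4i1 UMIs and 0.379% of Ndufa4 UMIs.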
